A study of Punica granatum with 14 samples.

Results

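In leaves of pomegranate (Punica granatum) seedlings, 150 genes formed the set described here, namely genes whose level was lower in every plant treated with B9 than in every other plant. B9 is daminozide, a growth retardant. The members were chosen by a rule on the counts themselves. The count of a gene, divided by the total of its library and scaled to a total of 1000000 (CPM), was taken to log2(CPM + 1), and the score of a gene was its lowest value over the 10 libraries without B9 minus its highest value over the 4 B9 libraries. Of the 27893 genes in the table, 205 had a score above 0, and the 150 with the highest scores were kept. All 150 passed the filter on low counts that left 19478 genes for testing.

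All plants were wild type seedlings of the cultivar Hongmanao in tissue culture, and all had been subcultured and then given IBA, an auxin, in the medium before the treatments began. Leaf RNA was sequenced after 90 days, with 2 plants in each of 7 groups: B9 at 6 and 8 mg/L, paclobutrazol at 6 and 8 mg/L, mannitol at 2.5 and 15 g/L, and distilled water as the control (CK). Each library came from 1 plant, and replicate numbers are those of the labels. A whole leaf holds several cell types, so a smaller share of a cell type and less RNA of a gene per cell cannot be told apart in these values. The symbols carry no product names in the tables used here, so the roles of the members and the levels of leaf marker genes are not analysed here.

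Gibberellins are hormones that promote elongation of stems by releasing growth from a class of repressor proteins. Daminozide and paclobutrazol are both known as inhibitors of gibberellin synthesis: paclobutrazol blocks the early oxidation of ent-kaurene, whereas daminozide blocks late steps carried out by dioxygenases that use oxoglutarate. Mannitol, a sugar alcohol, acts mainly by lowering the water potential of the medium. The study used the compounds to dwarf seedlings, and the genes below mark the libraries of B9 from those of both other compounds and of CK.

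Libraries held between 15790717 and 28385703 counts. The 2 libraries of 6 mg/L paclobutrazol correlated less with each other (Pearson r = 0.904 across genes) than the plants of the other 6 conditions did (0.958 to 0.973), so results that rest on them are also given without them. The biological coefficient of variation was 32.2% over all libraries.

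By the same rule, fewer genes were lowest in all B9 libraries (205) than highest in all of them (783). On TMM-scaled totals, which allow for the make-up of each library, these numbers were 319 and 550. On plain library totals, as for 205 and 783, the corresponding numbers were 466 lowest and 376 highest for paclobutrazol, and 313 lowest and 136 highest for mannitol. Their numbers on TMM-scaled totals were not computed. The number depended on single plants, since each one bounds the rule. Without replicate 1 of 8 mg/L B9, 434 genes scored above 0, and without replicate 2 of 6 mg/L paclobutrazol the number was 377. Without both libraries of 6 mg/L paclobutrazol, it was 424. Leaving a library out can only raise a score, so all members stay above 0, but 79 of the 150 were among the 150 highest scores without replicate 1 of 8 mg/L B9, 85 without replicate 2 of 6 mg/L paclobutrazol and 79 without both 6 mg/L paclobutrazol libraries.

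The gap that chose the members was narrow for most. The score had a median of 0.18, with quartiles of 0.117 and 0.342, and it was over 0.5 in 19 members and over 1 in 3. At the boundary, LOC116199741, LOC116189503 and LOC116213096 were the last inside, with scores of 0.0641, 0.0634 and 0.0631, and LOC116206286, LOC116187874 and LOC116214465 the first outside, with 0.0630, 0.0596 and 0.0596. In LOC116213096, the highest B9 library had 14.8 CPM and the lowest other library 15.5 CPM. The boundary therefore separates genes with nearly the same gap, and 55 more genes lay beyond it.

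The distance between means was wider than the gap. The mean CPM of a member in B9 had a median of 36.3% of its CK mean, with quartiles of 20.7% and 50.7%. The B9 mean was under 50% of CK in 111 members and under 10% in 15, and the highest share was 77.7%. Since the rule set these differences, they are a description and were not tested. Across members, the median of the mean CPM was 7.67 in B9, against 20.8 in paclobutrazol, 18.3 in mannitol and 20.7 in CK. Members took 0.312% to 0.399% of all counts in the B9 libraries, against 0.705% to 1.25% in the others.

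**Figure D1:**
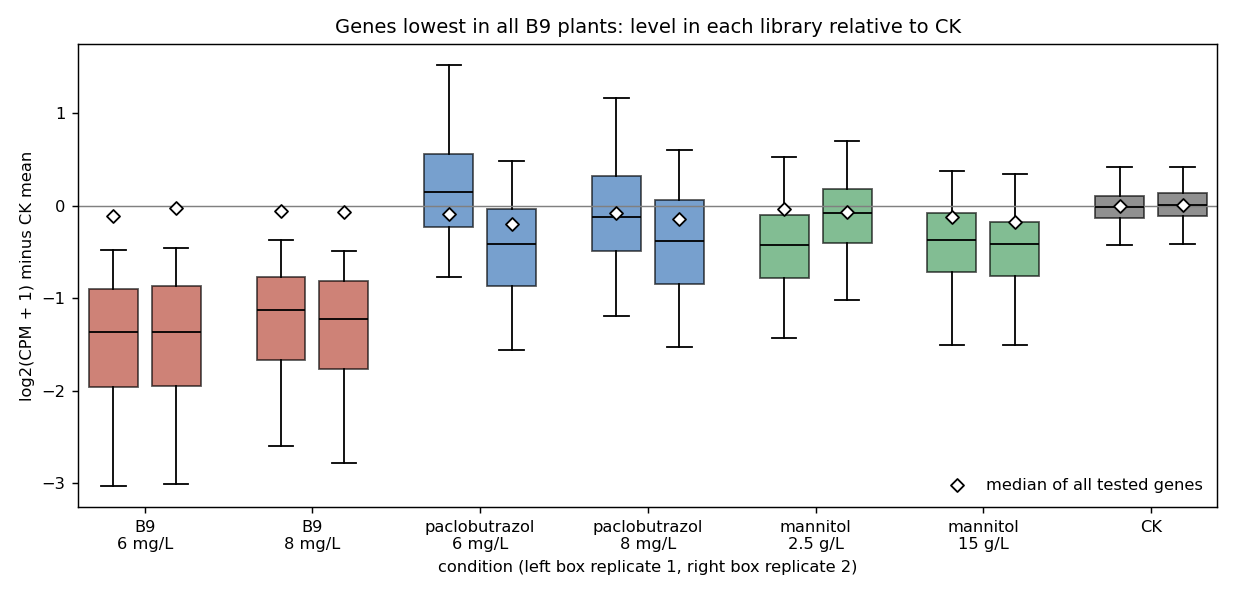
Box plot of the log2(CPM + 1) of the 150 members minus their CK mean, 1 box per library (box quartiles, line median, whiskers 5th to 95th percentile), with the median of all tested genes as a diamond. The B9 boxes have medians of -1.36 to -1.13, and the medians of the 8 paclobutrazol and mannitol libraries lie between -0.42 and 0.15.

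The widest gap was that of LOC116201455, a protein-coding gene. It had 52.7 and 21.8 CPM in 6 mg/L B9 and 68.4 and 46.7 CPM in 8 mg/L B9, against 261, 192, 354 and 218 CPM in the paclobutrazol libraries (6 mg/L first), 205, 177, 236 and 265 CPM in the mannitol libraries (2.5 g/L first) and 211 and 205 CPM in CK. Replicate 2 of 2.5 g/L mannitol was the lowest plant without B9, far above the highest B9 plant, and the B9 mean was 22.8% of the CK mean. LOC116215350 followed, with 85.8 and 81.5 CPM in 6 mg/L B9 and 59.9 and 79.0 CPM in 8 mg/L B9, against 1196, 436, 882 and 392 CPM in paclobutrazol, 184, 552, 363 and 515 CPM in mannitol and 697 and 628 CPM in CK. Here the 4 B9 plants lay close together, while the plants of each other compound lay far apart, with replicate 1 of 2.5 g/L mannitol as the lowest of them.

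LOC116187065 had 5.52, 2.39, 5.53 and 4.33 CPM in the B9 libraries (6 mg/L first), against 98.5, 16.6, 12.6 and 14.6 CPM in paclobutrazol, 20.1, 23.6, 17.9 and 13.7 CPM in mannitol and 41.8 and 24.7 CPM in CK. Replicate 1 of 6 mg/L paclobutrazol stood far above all other libraries, and the other 7 treated plants without B9 lay below both CK plants. In LOC116211552 the levels were 1.96, 2.63, 4.97 and 5.24 CPM in B9, against 35.0, 10.3, 27.0 and 17.0 CPM in paclobutrazol, 10.7, 20.1, 12.7 and 10.9 CPM in mannitol and 26.4 and 24.6 CPM in CK. Both 8 mg/L B9 plants lay above both 6 mg/L B9 plants in this gene. LOC116213081 had 3.38, 6.09, 7.75 and 8.83 CPM in B9, against 46.9, 25.5, 30.3 and 15.8 CPM in paclobutrazol, 36.8, 67.3, 33.0 and 34.4 CPM in mannitol and 26.9 and 37.6 CPM in CK, and a mannitol plant was the highest of all.

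**Figure D2:**
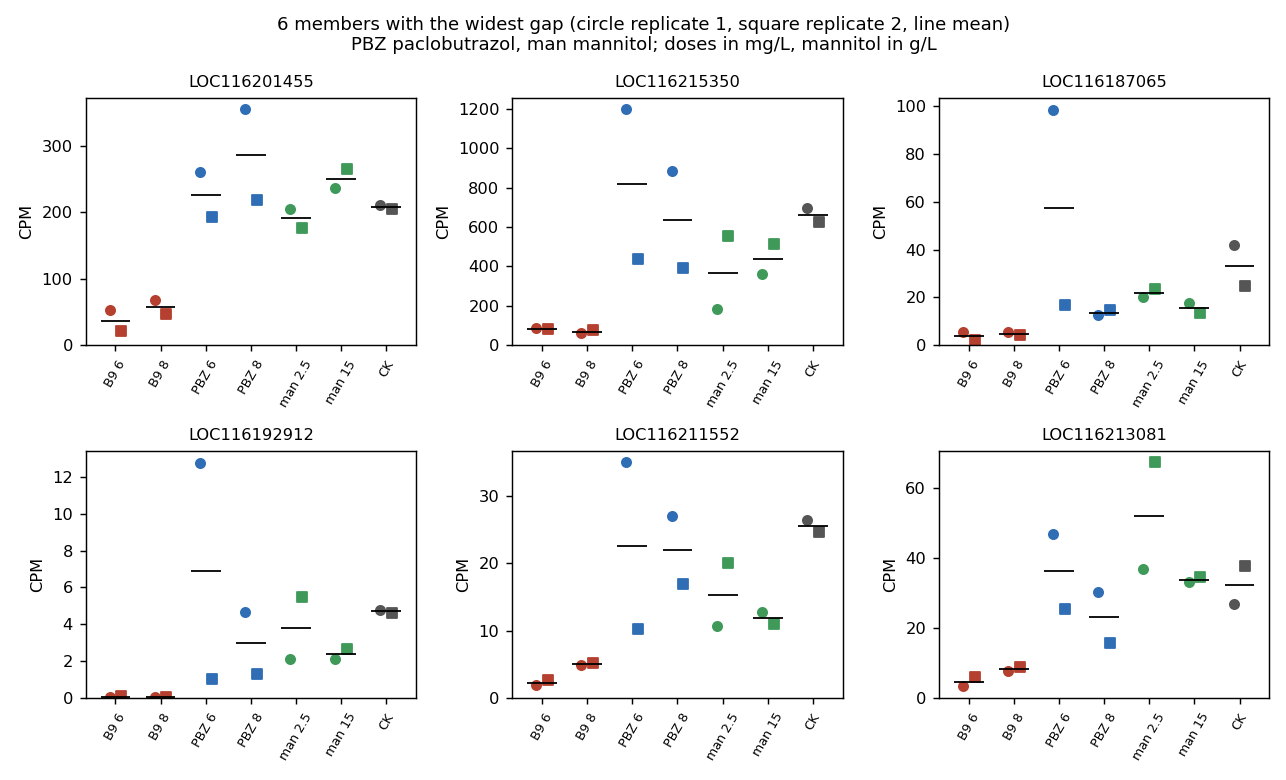
CPM of the 6 members with the highest scores in each of the 14 libraries, on linear axes from 0 (B9, paclobutrazol and mannitol at 2 doses each, then CK; circles replicate 1, squares replicate 2, lines means of 2). In LOC116201455 the B9 plants reach at most 68.4 CPM and the other plants at least 177 CPM, and in LOC116187065 the highest B9 value is 5.53 CPM and the lowest other value 12.6 CPM.

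Besides LOC116192912, described with the scarcest members, the remaining 4 of the 10 highest scores lay at different levels of expression. LOC116213095 ranged 0.656 to 2.09 CPM in B9 and 4.21 to 20.4 CPM in the other libraries, and LOC116209621 ranged 4.47 to 5.71 CPM in B9 and 10.1 to 25.0 CPM elsewhere. LOC116201319 had 0 counts in replicate 2 of 6 mg/L B9 and at most 1.23 CPM in B9, against 2.51 to 26.2 CPM in the others. LOC116196350 was the most abundant of them, at 180.3 to 272 CPM in B9 and 425 to 862 CPM in the rest.

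Among members outside the top 10, those with the highest CK mean were LOC116189729, LOC116199890, LOC116211839, LOC116213211 and LOC116199741. LOC116189729 had 556, 324, 560.2 and 513 CPM in B9, against 1654, 687, 966 and 999 CPM in paclobutrazol, 1177, 1472, 1066 and 1089.8 CPM in mannitol and 1319.9 and 1271 CPM in CK. Its lowest plant without B9 was replicate 2 of 6 mg/L paclobutrazol, at 687 CPM. LOC116199890 ranged 272 to 492 CPM in B9 and 695 to 1459.7 CPM elsewhere, and LOC116211839 ranged 94.3 to 166 and 182 to 449 CPM. In LOC116199741, whose score was among the 3 lowest, the ranges of 110.5 to 129 CPM in B9 and 135 to 269.9 CPM elsewhere almost met.

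In 6 members, every B9 library had 3 counts or fewer. LOC116192912 had 6 counts in the B9 libraries together, against 228 in CK, and its pooled CPM in B9 was 1.32% of that in CK (exact 95% interval 0.478% to 2.91%). Counts were pooled over plants, so this interval, like those that follow, covers counting error at most and leaves out the spread between plants. Reads are also not independent molecules. LOC116188609 had 2 counts in B9 and 193 in CK (0.518%, 0.0623% to 1.90%), and LOC116205496 had 9 and 222 (2.03%, 0.915% to 3.92%). Both were uneven in CK itself, with 1.51 and 6.63 CPM for LOC116188609 and 1.99 and 7.36 CPM for LOC116205496 in its replicates 1 and 2.

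LOC116196999 had 3 counts in B9 against 575 in CK (0.261%, 0.0536% to 0.766%), of which 527 were in replicate 1 of CK and 48 in replicate 2. LOC116189086 was the only member with 0 counts in all B9 libraries. It had 13 in CK, so that up to 16.4% of the CK level is within the exact 95% interval. In LOC116191953, 3 counts in B9 stood against 11 in CK (13.6%, 2.44% to 51.6%). LOC116189086 and LOC116191953 were scarce in every library, at 0.124 to 1.38 CPM and 0.128 to 1.29 CPM outside B9.

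The members also leaned together within pairs of plants of 1 condition. The rule used each of these libraries as a lower bound but did not set their order, and the values are a description. In 6 mg/L paclobutrazol, 128 of 150 members were higher in replicate 1 than in replicate 2, against 53.0% of the tested genes, and the median difference was 0.53 on the log2(CPM + 1) scale, against 0.06 over all tested genes. In 8 mg/L paclobutrazol the order was the same for 120 members, against 55.4% of the tested genes, with a median of 0.30 against 0.05. In 2.5 g/L mannitol only 31 were higher in replicate 1, against 53.7%, with a median of -0.29 against 0.03. Most members thus leaned to the same plant within each of these 3 pairs, not only at 6 mg/L paclobutrazol.

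The combined order, with replicate 1 higher at both paclobutrazol doses and replicate 2 higher at 2.5 g/L mannitol, held for 82 members (54.7%), against 22.1% of the tested genes. In the other pairs the order was less one-sided. Of 150 members, 86 were higher in replicate 1 of 15 g/L mannitol, against 58.2% of the tested genes. In replicate 1 of CK 72 were higher, against 47.3%. For 6 mg/L B9 the number was 70, against 37.5%, and for 8 mg/L B9 it was 94, against 53.55%. The replicate numbers name different plants in each group and have no order. Replicate 1 was the deeper library at 6 mg/L paclobutrazol (total counts of 22495926 and 19939771), at 8 mg/L paclobutrazol (20320295 and 15790717) and, by a little, at 2.5 g/L mannitol (23320753 and 22882715), and the part of depth in these differences was not tested.

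**Figure D3:**
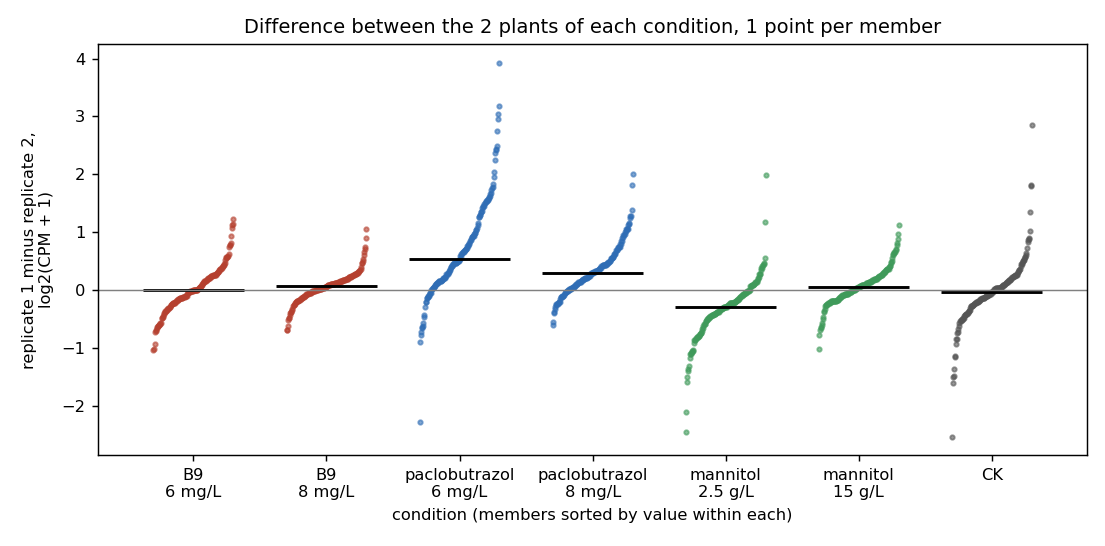
Difference between replicate 1 and replicate 2 of each condition in log2(CPM + 1), 1 point per member sorted by value, with the median as a line. Medians lie at 0.53 and 0.30 in the paclobutrazol doses of 6 and 8 mg/L, at -0.29 in 2.5 g/L mannitol and between -0.03 and 0.07 in the other 4 conditions.

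Over the 10 libraries without B9, the Pearson correlation between 2 members had a median of 0.27 and was above 0 in 72.9% of member pairs, against a median of 0.03 and 52.1% over all pairs of tested genes. Without the 6 mg/L paclobutrazol libraries, the medians over the remaining 8 were 0.25 for members and 0.04 for tested genes. These are descriptions, since all pairs share the same plants and the rule required every one of these libraries to lie above B9.

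That requirement fell unevenly on the plants. The lowest library without B9 was replicate 2 of 6 mg/L paclobutrazol in 36 members, replicate 2 of 15 g/L mannitol in 30, replicate 1 of 2.5 g/L mannitol in 24 and replicate 2 of 8 mg/L paclobutrazol in 21. A CK plant was the lowest in only 6. On the side of B9, the 8 mg/L plants were the highest library in 67 (replicate 1) and 28 (replicate 2) members, and the 6 mg/L plants in 21 (replicate 1) and 34 (replicate 2).

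Among the 3 groups without B9, mannitol more often had the lowest mean and less often the highest in members than in all tested genes. CK had the highest of the mean levels of CK, paclobutrazol and mannitol in 58.7% of members, against 43.8% of tested genes, and mannitol had the highest in 8%, against 22.6%. Mannitol was the lowest in 56.7%, against 33.8%. Paclobutrazol had the highest mean in 33.3%, against 33.6%, and the lowest in 28%, against 45.0%. The share of members below both CK plants differed between plants of a compound. In mannitol it was 68.7% and 45.3% at 2.5 g/L (replicates 1 and 2), against 43.7% and 46.2% of tested genes, and 70.7% and 75.3% at 15 g/L, against 51.9% and 57.1%. In paclobutrazol it was 28.7% and 69.3% at 6 mg/L, against 48.5% and 54.0%, and 47.3% and 60% at 8 mg/L, against 47.2% and 51.1%. The plants with the lower shares, replicate 1 of each paclobutrazol dose and replicate 2 of 2.5 g/L mannitol, were close to or below the share of tested genes.

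The comparison of paclobutrazol with CK, over both doses, asks whether genes low under B9 moved under the other inhibitor of gibberellin synthesis. Calls required a log2 fold change beyond 1 in either direction together with an adjusted p under 0.05. Both came from the quasi-likelihood test of edgeR, with p-values adjusted by Benjamini and Hochberg's method over all tested genes. Of the 150 members, 2 were called higher and 1 lower in paclobutrazol, that is 1.33% and 0.667%, against 2.91% and 2.66% of all tested genes. Genes with a paclobutrazol plant as low as the highest B9 plant were left out by the rule, which limited the share called lower in advance. The median log2 fold change of the members was -0.05, against 0.02 over the tested genes, and 70 members were above 0. Without replicate 2 of 6 mg/L paclobutrazol this median was 0.08, and without replicate 1 it was -0.15.

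The member that fell was LOC116193288, with 12.2, 8.58, 8.51 and 7.22 CPM in paclobutrazol, against 27.2 and 26.6 CPM in CK. All 4 paclobutrazol plants lay below both CK plants, and the log2 fold change was -1.41 (SE 0.31, adjusted p = 0.0311). Mannitol held 10.3, 22.9, 14 and 13.2 CPM of it and B9 6.34, 5.11, 3.91 and 6.86 CPM, so that the paclobutrazol plants were between B9 and most of the mannitol plants.

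LOC116202871 rose, with 60.3, 22.6, 42.8 and 34.6 CPM in paclobutrazol, against 17.2 and 14.1 CPM in CK (log2 fold change 1.51, SE 0.40, adjusted p = 0.0481). Its B9 plants had 3.92, 6.52, 6.52 and 8.43 CPM, below CK as the rule required of every member. Relative to the CK mean, its log2(CPM + 1) was 0.44, 1.09, 0.41 and -0.41 in mannitol (2.5 g/L first). The CK plants were at 0.13 and -0.13, so higher levels of this gene were not confined to paclobutrazol. LOC116207963 also rose, with 304, 165, 113 and 84.0 CPM in paclobutrazol, against 83.3 and 56.9 CPM in CK (log2 fold change 1.27, SE 0.32, adjusted p = 0.0435). The lowest paclobutrazol plant was level with the higher CK plant, and B9 had 35.4, 27.9, 34.2 and 36.8 CPM.

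These 3 calls lay near the threshold. DESeq2's size factors kept all 3. Scaling by library size alone moved the median of all tested genes to -0.16 on the log2 scale. There, 3 members were called (2%, against 6.21% of all tested genes). All were lower in paclobutrazol, LOC116193288 among them (log2 fold change -1.57). LOC116202871 and LOC116207963 kept folds of 1.36 and 1.12 there (adjusted p = 0.0658 and 0.0585). Without both 6 mg/L paclobutrazol libraries LOC116193288 and LOC116202871 stayed called (-1.62 and 1.46), and LOC116207963 was at 0.64 (adjusted p = 0.129). Without replicate 1 or 2 of CK, of 8 mg/L paclobutrazol or of 15 g/L mannitol, all 3 calls were lost. Fewer of all tested genes were called in these fits too, so the loss was not particular to members. LOC116193288 kept a log2 fold change of -1.36 to -1.46 in these. Without any 1 of the B9 libraries, LOC116193288 alone stayed called, and again fewer of all tested genes were called. Without replicate 1 of 6 mg/L paclobutrazol there were 16 calls, 14 of them lower (10.7% of members, against 22.2% of all tested genes), and without replicate 2 there were 7 (4.67% against 5.85%). Without both there were 15, with 6 higher and 9 lower (10.1% against 19.3%). DESeq2 called 8 members, 3 higher and 5 lower (5.33% against 10.2%).

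In mannitol over both doses against CK, 0 members were called by edgeR, against 0.0667% of all tested genes. Here too, the rule left out genes with a mannitol plant as low as the highest B9 plant. At an unadjusted p under 0.05 there were 28 members, 5 of them higher (18.7% of members, against 13.9% of all tested genes), and the smallest adjusted p of a member was 0.0765. The members leaned downwards, with a median log2 fold change of -0.20, against 0.02 over the tested genes, and 41 of 150 were above 0, against 51.8%. The median was -0.11 without replicate 1 of 2.5 g/L mannitol and -0.32 without replicate 2. These values and those of paclobutrazol use the same 2 CK plants.

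DESeq2 called 5 members (3.33%, against 2.41% of all genes it fitted), all lower in mannitol, singled out here once their values were known: LOC116192045, LOC116196051, LOC116213096, LOC116187022 and LOC116189595. LOC116189595 had 2.27, 2.67, 2.03 and 1.71 CPM in mannitol, against 19.5 and 7.06 CPM in CK (edgeR log2 fold change -2.49, SE 0.58, adjusted p = 0.0993). LOC116187022 had 1.76, 4.63, 2.36 and 1.62 CPM in mannitol, against 25.0 and 16.4 CPM in CK (-2.89, SE 0.80, adjusted p = 0.157). In both, the 4 mannitol plants lay below both CK plants, and the CK plants differed from each other.

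LOC116192045 had 5.70, 16.6, 6.88 and 3.80 CPM in mannitol, against 29.5 and 28.6 CPM in CK (edgeR log2 fold change -1.76, SE 0.41, adjusted p = 0.0955), and LOC116196051 had 47.5, 58.7, 64.1 and 44.9 CPM, against 153 and 176 CPM (-1.47, SE 0.39, adjusted p = 0.133). In these 2 genes the paclobutrazol plants were also all below CK, at 8.94, 4.21, 14.2 and 12.8 CPM for LOC116192045 and 108, 31.9, 62.9 and 29.6 CPM for LOC116196051. The same held for LOC116187022. Its log2(CPM + 1) relative to the CK mean was -0.35, -3.30, -0.87 and -2.11 in paclobutrazol, against 0.29 and -0.29 in the CK plants. Without replicate 1 or 2 of 6 mg/L paclobutrazol, or without both, edgeR called 5 members in mannitol, all lower (3.33% to 3.36% of members, against 1.88% to 1.98% of all tested genes).

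Paclobutrazol and mannitol, at both doses each, were then set against each other, a contrast without CK or B9 plants, although all 14 libraries entered the fit that gave the spread. Of the members, 5 were called higher and 2 lower in paclobutrazol, that is 3.33% and 1.33%, against 6.2% and 5.54% of all tested genes. The rule kept every plant of both compounds above B9, which limited how low a member could be on either side. Where the 4 paclobutrazol and 4 mannitol libraries did not overlap, 13 members were higher and 6 lower in paclobutrazol (8.67% and 4%), against 8.11% and 7.35% of the tested genes. The share of members called was below that of all genes with all libraries, but not without replicate 2 of 6 mg/L paclobutrazol (16 members, 10.7% against 7.56%) or replicate 2 of 8 mg/L paclobutrazol (8 members, 5.33% against 4.65%). Of the 150, 110 had a log2 fold change above 0, with a median of 0.24, against 0.00 over the tested genes. Without replicate 1 of 6 mg/L paclobutrazol the median was 0.05, with 90 above 0, and without both libraries of that dose it was 0.09, with 88 above 0.

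LOC116213096 had the smallest adjusted p of them, with 98.8, 33.0, 61.9 and 47.1 CPM in paclobutrazol, against 17.4, 25.0, 15.5 and 17.8 CPM in mannitol (log2 fold change 1.68, SE 0.27, adjusted p = 0.00535). All paclobutrazol plants were above all mannitol plants, and CK, at 44.9 and 44.0 CPM, lay within the paclobutrazol range. The mannitol plants came close to those of B9, which had 9.26, 8.95, 14.8 and 13.6 CPM. LOC116202565 had 136, 42.0, 194 and 176 CPM in paclobutrazol, against 44.1, 37.3, 61.2 and 69.5 CPM in mannitol (1.33, SE 0.27, adjusted p = 0.0106). Replicate 2 of 6 mg/L paclobutrazol lay inside the range of mannitol, and the other 3 paclobutrazol plants lay above it.

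LOC116213211 had 552, 322, 383 and 311 CPM in paclobutrazol, against 209.8, 278, 172 and 129 CPM in mannitol (log2 fold change 1.04, SE 0.22, adjusted p = 0.0127), with no overlap. LOC116207963, called higher against CK too, had 304, 165, 113 and 84.0 CPM in paclobutrazol, against 72.6, 122, 59.7 and 38.6 CPM in mannitol (1.15, SE 0.25, adjusted p = 0.0132), and the 8 mg/L plants overlapped with mannitol. Without the 6 mg/L paclobutrazol libraries its log2 fold change was 0.52 (adjusted p = 0.137). The member with the largest fold change was LOC116196999, with 118, 12.1, 9.25 and 3.23 CPM in paclobutrazol, against 1.67, 0.175, 1.66 and 1.11 CPM in mannitol (4.15, SE 0.99, adjusted p = 0.0195). Replicate 1 of 6 mg/L paclobutrazol stood far above the rest, and without it the log2 fold change was 3.01 (adjusted p = 0.0193). The other 3 paclobutrazol plants also lay above all mannitol plants. This call was lost without both libraries of that dose (log2 fold change 2.47, adjusted p = 0.0583), and also without replicate 1 of 8 mg/L paclobutrazol (adjusted p = 0.0513), replicate 2 of 2.5 g/L mannitol (0.0713), or replicate 1 (0.0606) or 2 (0.0878) of 15 g/L mannitol.

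The members called lower in paclobutrazol were LOC116213235 and LOC116202566. LOC116213235 had 12.3, 9.33, 16.7 and 11.5 CPM in paclobutrazol, against 28.5, 29.0, 42.4 and 21 CPM in mannitol (log2 fold change -1.26, SE 0.30, adjusted p = 0.0181), and LOC116202566 had 6.40, 12.8, 8.96 and 7.60 CPM, against 16.1, 31.3, 25.9 and 18.2 CPM (-1.32, SE 0.32, adjusted p = 0.0183). Neither overlapped. In LOC116202566 the B9 plants, at 5.98, 4.78, 3.91 and 5.64 CPM, lay just below the lowest paclobutrazol plant. Without replicate 1 or 2 of 15 g/L mannitol, fewer members and also fewer of all tested genes were called. Without both 6 mg/L paclobutrazol libraries there were 12 calls (8.05%, against 20.4% of all tested genes), with 4 of the 7 among them. When only the libraries compared entered the fit, 2 were called (1.33%, against 3.34%).

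**Figure D4:**
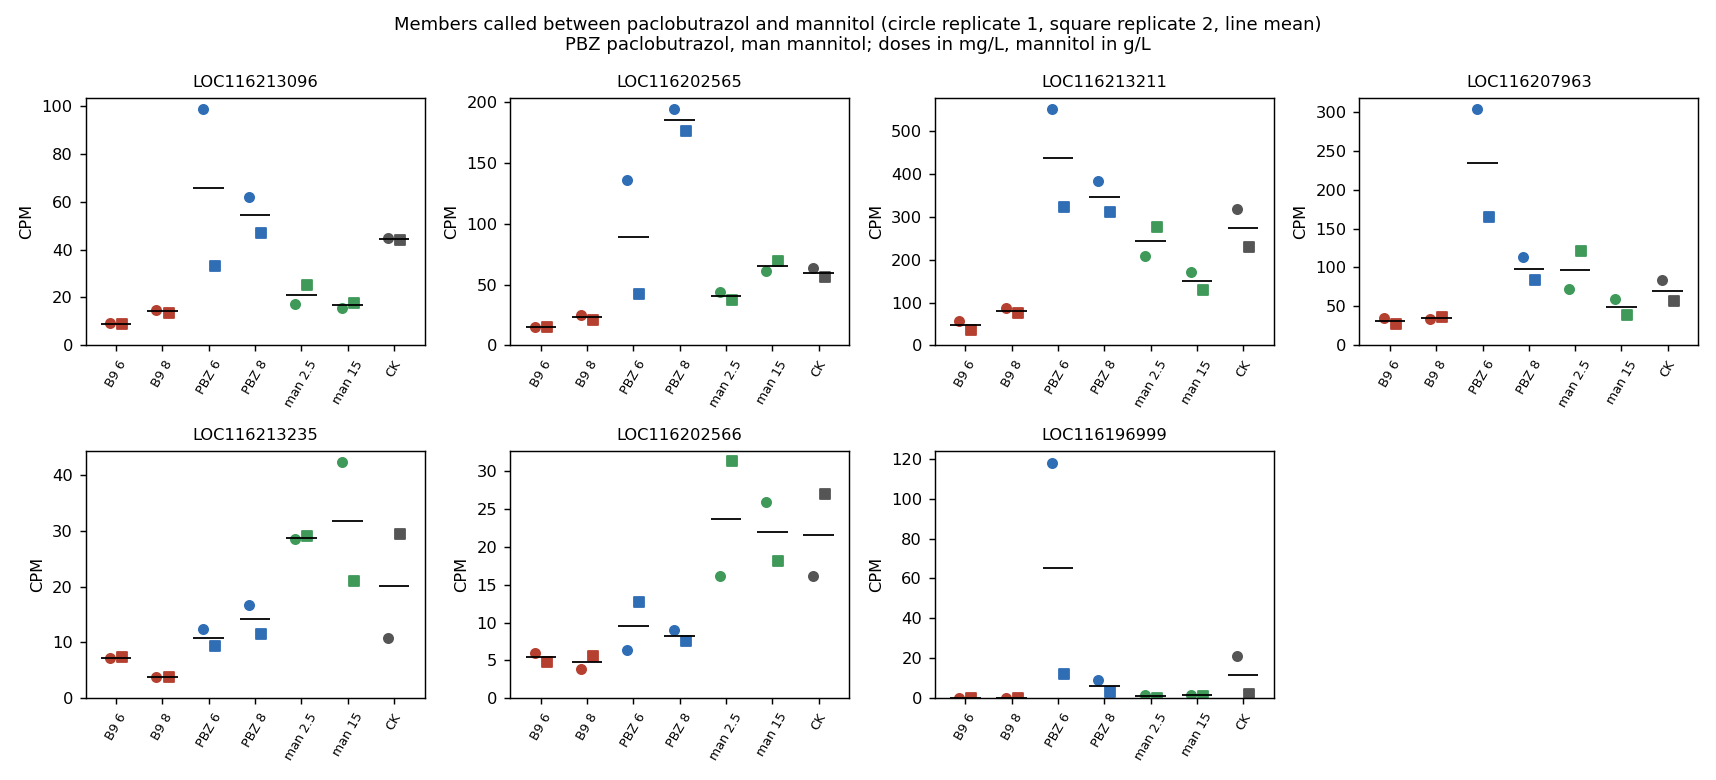
CPM of the 7 members called between paclobutrazol and mannitol in each of the 14 libraries, on linear axes from 0 (circles replicate 1, squares replicate 2, lines means of 2). In LOC116213096 the paclobutrazol plants reach from 33.0 to 98.8 CPM and the mannitol plants from 15.5 to 25.0 CPM, while in LOC116213235 the paclobutrazol plants are the lower ones, at 9.33 to 16.7 CPM against 21 to 42.4 CPM in mannitol.

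The dose of B9 was not part of the rule. In 8 mg/L against 6 mg/L B9, 0 members were called by edgeR, against 0.00513% of all tested genes, and the smallest adjusted p of a member was 0.545. At an unadjusted p under 0.05 there were 14 members, of which 13 were higher at 8 mg/L (9.33% of members, against 4.69% of all tested genes), and DESeq2 called 2 (1.33%, against 0.409%). Most members were higher at the larger dose: the log2 fold change was above 0 in 113 of 150, against 51% of the tested genes, with a median of 0.21 against 0.01. In 51 members both 8 mg/L plants lay above both 6 mg/L plants and in 11 they lay below (34% and 7.33%), against 19.3% and 23.1% of the tested genes. Over the alternatives to the processing, the median stayed above 0, between 0.16 and 0.27.

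The 2 members that DESeq2 called, named after their values were seen, were nearly silent at 6 mg/L. LOC116187022 had 12 and 25 counts at 8 mg/L B9, against 0 and 0 at 6 mg/L (adjusted p = 0.048 by DESeq2 and 0.922 by edgeR), and LOC116213131 had 31 and 26 counts, against 1 and 1 (0.0481 and 0.545). Their levels at 8 mg/L B9 still lay below those of CK, at 0.423 and 0.985 CPM against 25.0 and 16.4 CPM for LOC116187022 and 1.09 and 1.02 CPM against 2.39 and 4.37 CPM for LOC116213131. LOC116211839, an abundant member, had 166 and 149 CPM at 8 mg/L B9, against 109 and 94.3 CPM at 6 mg/L (edgeR log2 fold change 0.65, SE 0.24, adjusted p = 0.971). LOC116213211 had 86.9 and 75.4 CPM at 8 mg/L B9, against 56.7 and 36.2 CPM at 6 mg/L. In neither gene did the doses overlap, and neither passed the test.

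All 150 members were found in RefSeq's annotation of ASM765513v2, a pomegranate assembly. Of them, 148 were protein-coding (98.7%, against 95.2% of the tested genes) and 2, LOC116192737 and LOC116205827, were long non-coding RNAs. The median span of a member gene was 2544 bp, against 3104 bp over the tested genes, with a range of 570 to 21719 bp. A single annotated transcript was listed for 79.3% of members, against 66.1% of tested genes.

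Of the 149 members with a place in the gene order, 9 lay directly next to another member, in 4 runs. The run of 3 was LOC116213095, LOC116213096 and LOC116213211, which lay at very different levels, with mean CPM of 1.5, 11.7 and 63.8 in B9, against 8.80, 40.5 and 290.2 over the other libraries. The outer 2 were among the higher scores (0.755 and 0.560), whereas LOC116213096, between them, had the lowest score kept. Both LOC116213096 and LOC116213211 were called higher in paclobutrazol than in mannitol, and LOC116213095 was not (log2 fold change 0.55, SE 0.41, adjusted p = 0.323). Reads mapped to more than 1 place had been removed, so counts of near-identical neighbours would be incomplete, and whether these are copies of a gene was not tested.

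The pairs were LOC116207963 with LOC116207964, LOC116206838 with LOC116206713, and LOC116197902 with LOC116197088. LOC116207964 was scarce, at 0 to 0.355 CPM in B9 and 0.903 to 2.62 CPM elsewhere, next to the abundant LOC116207963. LOC116206838 ranged 1.93 to 3.17 CPM in B9 and 3.93 to 14.2 CPM in the others, and LOC116206713 ranged 3.98 to 6.09 and 7.14 to 17.1 CPM. In LOC116197902 the ranges were 1.77 to 2.57 CPM in B9 and 2.85 to 10.3 CPM elsewhere, and in LOC116197088 they were 0.456 to 1.37 and 1.49 to 11.4 CPM.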

How the data were processed

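RNA-seq of leaves was analysed for 14 pomegranate seedlings, 2 in each of 7 conditions, grouped by the sample labels. Reads had been aligned by the authors with hisat2 and counted per gene with featureCounts, leaving out reads with several mapped places. As deposited, the table holds raw counts, not normalized, for 27893 genes. The authors used a published pomegranate reference genome. Its assembly version and the strand setting of the counting are not given in the sources used here, which leaves genes that overlap, or lie antisense to another, uncertain.

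CPM were computed from column totals, with 1 added before taking log2, to score the genes. The members and all lists were chosen with earlier results of these data known, and no set of genes is independent of them. Differences between B9 and the other libraries were used to choose members and were not tested. Tests were run on 4 comparisons whose direction the rule did not set. It did bound paclobutrazol, mannitol and CK from below, since a gene with any such plant as low as the highest B9 plant was left out. By the same step it bounded the B9 plants of both doses from above. Shares of members called are therefore not free of the rule. Tests used R 4.3.3 with edgeR 4.0.16: 1 fit of 7 condition means over all 14 libraries and 19478 genes kept by filterByExpr (minimum count 10). The fit used TMM normalization, the quasi-likelihood test, 7 residual degrees of freedom and Benjamini-Hochberg adjustment within each comparison. The thresholds on fold change and adjusted p are those of the study's methods, in which DESeq2 was used. P-values rest on the spread between the 2 plants of a condition, pooled over all 7 conditions in the fit, also those outside a comparison. The edgeR fit and test were tried on simulated counts with planted changes, at the same spread for all genes and libraries. The scoring rule and the alternatives were not tried in this way.

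Named members are the 10 highest scores, the 5 highest CK means outside these, the 3 lowest scores kept and the 3 next genes, up to 4 called members per comparison, neighbours in the gene order, and members with 3 counts or fewer in every B9 library. The other called members, members called by DESeq2 alone, members described for the dose of B9, the non-coding members and 1 member at the floor were added once their values were known. Alternatives were DESeq2 1.42.0, its size factors, library size alone, no filter, the adjusted p alone, only the libraries compared, a replicate block, the fit without 6 mg/L paclobutrazol, other pseudocounts and TMM-scaled totals for the score, and each library left out in turn. Deviations of same-numbered plants correlated from -0.286 to 0.389 over 21 pairs of conditions (median -0.05), and 6 of these correlations were over 0.1. The numbers were not taken as pairs in the main fit, and the replicate block served as the alternative. Protein and promoter sequences, product names and gene lists are not analysed here.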

Additional observations from a re-analysis of the deposited data

Results flagged for a closer look

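The responses to paclobutrazol and mannitol were tested against each other directly, and 7 members differed between them in edgeR's quasi-likelihood test. The share of members called was lower than that of all tested genes in both directions with all libraries. Without replicate 2 of 6 mg/L paclobutrazol it was 10.7%, against 7.56% of all tested genes, and without replicate 2 of 8 mg/L paclobutrazol 5.33%, against 4.65%. The rule kept all plants of both compounds above B9, so these shares are not free of it. The members with higher levels in paclobutrazol were LOC116213096 (log2 fold change 1.68), LOC116202565 (1.33), LOC116207963 (1.15), LOC116213211 (1.04) and LOC116196999 (4.15). LOC116213235 (-1.26) and LOC116202566 (-1.32) were lower in paclobutrazol. Of the 22 alternatives tried, LOC116213096 stayed called in 22, LOC116202565 in 20, LOC116213235 in 19, LOC116207963 and LOC116202566 in 17, and LOC116213211 and LOC116196999 in 16. In 1 of the 22, the adjusted p alone on the main fit, a call could not be lost. Over these alternatives the log2 fold change of LOC116196999 ranged from 2.47 to 5.32.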

How the results depend on the processing

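The 10 fold changes of called members (3 for paclobutrazol against CK and 7 for paclobutrazol against mannitol) kept their direction under all 22 alternatives, and of these 220 values 158 kept their call and 62 missed a threshold. Among these alternatives, the adjusted p alone reused the main fit without the fold threshold, so no call could be lost and no value could change there. For paclobutrazol against CK, 3 members were called (2%, against 5.57% of all tested genes). Without the libraries of 6 mg/L paclobutrazol there were 15 (10.1% against 19.3%). On only the libraries compared there were 0, against 0.00535% of all tested genes. The adjusted p alone gave 8 (5.33% against 8.05%), and DESeq2 gave 8 (5.33% against 10.2%). With each library left out in turn, calls moved in the members and over all tested genes. For mannitol against CK, 0 members were called, against 0.0667% of all tested genes. Without 6 mg/L paclobutrazol there were 5 (3.36% against 1.98%), on only the libraries compared 4 (2.68% against 1.44%) and by DESeq2 5 (3.33% against 2.41%). These calls too moved with a library left out. For paclobutrazol against mannitol, 7 members were called, with 12 without 6 mg/L paclobutrazol, 2 on only the libraries compared, 21 by adjusted p alone and 4 to 16 with a library left out. For 8 mg/L against 6 mg/L B9, 0 members were called, against 0.00513% of all tested genes, with 2 by DESeq2 (1.33% against 0.409%). The replicate block gave 3, 0, 8 and 0 calls in these comparisons (2%, 0%, 5.33% and 0% of members). The shares over all tested genes were 4.44%, 0.0616%, 11.2% and 0.0205%. Of the main calls, 2 of the 3 of paclobutrazol against CK and all 7 of paclobutrazol against mannitol were among them. The number of genes lowest in all B9 libraries was 205, with 319 on TMM-scaled totals, 424 without 6 mg/L paclobutrazol and 213 to 434 with a library left out. Of the 150 members, 129 were among the 150 highest scores on TMM-scaled totals and 79 without 6 mg/L paclobutrazol. With 2 plants per condition the median standard error of a member's log2 fold change was 0.312 for paclobutrazol against CK, which limits what could be called. The causes of these differences were not tested.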
